A study of Homo sapiens with 21 samples.

Results

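Transcript levels of 10 genes of the Wnt pathway were followed through EWS/FLI knockdown and rescue in A673 cells. They were chosen by name as modulators and targets of the pathway, with earlier results of these data known. They are the secreted inhibitors DKK1, DKK2, DKK3 and SFRP1, the ligands WNT5A and WNT5B, the receptor FZD8, the nuclear factors LEF1 and TCF7, and AXIN2. The count table held 57820 genes, of which 30549 were tested, and all 10 of these genes were among those tested. A673 is an established line of Ewing sarcoma, a tumor that depends on the fusion protein EWS/FLI, in which the N-terminal part of EWS is joined to the DNA-binding part of the ETS factor FLI1. The 21 RNA-seq libraries fell into 7 groups of 3. Cells of the iLuc group carried an shRNA against luciferase and an empty vector, and kept the endogenous fusion. All other groups carried the iEF shRNA, directed at the 3′UTR of EWS/FLI. The group named iEF received an empty vector and was the baseline, WT-EF received full-length EWS/FLI, and del22 received a form without the EWS domain as the negative control. DAF received a form in which tyrosines of the first degenerate repeats of EWS were changed to alanine. In mut9 most of the EWS part was removed and only its 2 ends were kept, and DAF-mut9 joined this shortening with alanine for the tyrosines that were left. Cells were given the shRNA on day 1 and a cDNA vector on day 5, with puromycin and hygromycin selection until day 16. All libraries came from this one cell line, and every rescue construct was delivered by retrovirus. The labels number the replicates only, while the study's account has knockdown and rescue done anew for each replicate, so p-values measure the spread between such experiments in a single line.

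Library totals ran from 32.9 to 46.2 M counts. FLI1, whose 3′ part belongs to the targeted fusion transcript, stood at 70.3 ± 16.2 CPM (counts per 1000000, scaled by TMM) in iLuc and 20.6 ± 0.553 CPM in iEF (SD, n = 3). In the rescued groups it was unequal, at 24.5 ± 2.39 CPM in WT-EF (0.24 ± 0.13 from iEF on the log2 scale, SE, adjusted p = 0.196), 30.7 ± 2.52 CPM in mut9 (adjusted p = 0.00494), 37 ± 2.43 CPM in DAF (0.000365), 36.3 ± 1.49 CPM in DAF-mut9 (0.00164) and 49.5 ± 11 CPM in del22 (4.85e-05). These counts are per gene, over 8026 exon bases, and join the endogenous transcripts with those of the cDNA. They are therefore not a measure of construct level alone. The part of these unequal FLI1 counts in the results was not tested. Of 6 Ewing sarcoma markers, NR0B1, NKX2-2, STEAP1, PRKCB and CCND1 were measured in iLuc, while CD99 had at most 8 counts in any library. CD99 lies in a region shared by the X and Y chromosomes, where reads can match both copies, so its expression cannot be judged from this count. Markers of epithelial, leukocyte and endothelial cells (EPCAM, CDH1, KRT19, PTPRC, CD3E, CDH5 and VWF) were at 1.39 CPM or less in every library. On the first principal component of genes averaging at least 1 CPM, mut9 replicate 2 stood apart at -21.06, against 1.26 and 5.83 for the other mut9 libraries. Values without it are given where they alter a call. In bulk RNA, fewer cells with a transcript cannot be told apart from less transcript per cell.

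Wnt ligands bind Frizzled receptors at the cell surface. In the canonical branch this halts the destruction complex, built on AXIN proteins, APC and GSK3B, so that β-catenin builds up and acts in the nucleus with the HMG-box factors TCF7 and LEF1. AXIN2 is a common target of that activity and feeds back on it as part of the destruction complex. Dickkopf proteins are secreted. DKK1 blocks the LRP co-receptors, DKK2 can block or weakly activate them depending on the partners present, and DKK3 is a divergent member whose action on Wnt is less clear. SFRP1 binds Wnt ligands directly. WNT5A and WNT5B mostly signal through branches that do not use β-catenin, and can oppose the canonical branch. EWS/FLI binds DNA through the ETS domain of FLI1, at single GGAA sites and at runs of GGAA repeats.

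Because EWS/FLI acts at GGAA repeats, the nearest run of at least 4 GGAA copies was located for each gene in GRCh37. No start site of the 10 genes had such a run within 5 kb, which 3.55% of the 29519 placed genes had. The 2 sequences below are shown because each lies inside an intron of a gene that responded strongly, DKK2 upward and WNT5B downward. They are read on the plus strand, and the run is in capitals.
DKK2, chr4:108184891-108184994, GRCh37: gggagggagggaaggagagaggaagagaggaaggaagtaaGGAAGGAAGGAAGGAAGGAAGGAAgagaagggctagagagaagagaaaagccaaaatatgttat
WNT5B, chr12:1691257-1691364, GRCh37: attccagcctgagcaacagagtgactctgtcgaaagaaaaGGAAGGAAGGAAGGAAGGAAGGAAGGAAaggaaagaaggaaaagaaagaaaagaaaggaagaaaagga
The DKK2 run held 6 copies and lay 20009 bases downstream of the start, as near as in 14.3% of placed genes. That of WNT5B held 7 copies at 52240 bases, as near as in 34.1%. Runs nearer than that of DKK2 lay upstream of SFRP1, a strong responder (6 copies at 12925 bases, as near as in 9.4%), and of FZD8, which did not pass a test against iEF (4 copies at 9911 bases, 7.2%). No binding data were used, so these runs are positions only.

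Promoter windows of RefSeq (GRCh38.p14) were given for 6 of the 10 genes: DKK1, WNT5A, WNT5B, FZD8, LEF1 and TCF7. Both strands of the 9 windows were searched for CTTTGAT and CTTTGAA, the letters bound by TCF7 and LEF1, for CCGGAAGT, an ETS site, and for GGAAGGAA. The 2 windows that held any of them are shown, each as the 250 bases before the gene start on the plus strand, with the match in capitals.
DKK1, chr10:52314031-52314280, GRCh38.p14: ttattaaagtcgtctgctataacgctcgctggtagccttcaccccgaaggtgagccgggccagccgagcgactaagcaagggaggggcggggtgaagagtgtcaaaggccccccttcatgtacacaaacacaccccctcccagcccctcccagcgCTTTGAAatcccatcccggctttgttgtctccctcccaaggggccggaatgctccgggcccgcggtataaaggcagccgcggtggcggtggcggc
TCF7, chr5:134115363-134115612, GRCh38.p14: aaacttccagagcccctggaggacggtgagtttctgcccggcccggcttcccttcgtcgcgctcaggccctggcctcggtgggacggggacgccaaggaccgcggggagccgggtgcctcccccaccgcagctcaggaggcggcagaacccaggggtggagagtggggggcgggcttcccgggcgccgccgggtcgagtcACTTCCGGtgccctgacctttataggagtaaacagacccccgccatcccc
The DKK1 window held CTTTGAA, which 4.43% of 35116 promoters had, and the TCF7 window held CCGGAAGT on the minus strand, which 4.14% had. None of the 9 windows held GGAAGGAA (3.67% of promoters) or CTTTGAT (2.62%). A match describes these letters in this window and is not a binding site.

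The 4 secreted inhibitors had the widest differences between iLuc and iEF of the 10 genes, and they did not move in one direction. DKK2 was high with the endogenous fusion and low without it, whereas DKK1, DKK3 and SFRP1 were low with the endogenous fusion and high without it. Rescue with WT-EF restored DKK2, brought DKK3 and SFRP1 part of the way down and left DKK1 in the range of depleted cells.

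**Figure D1:**
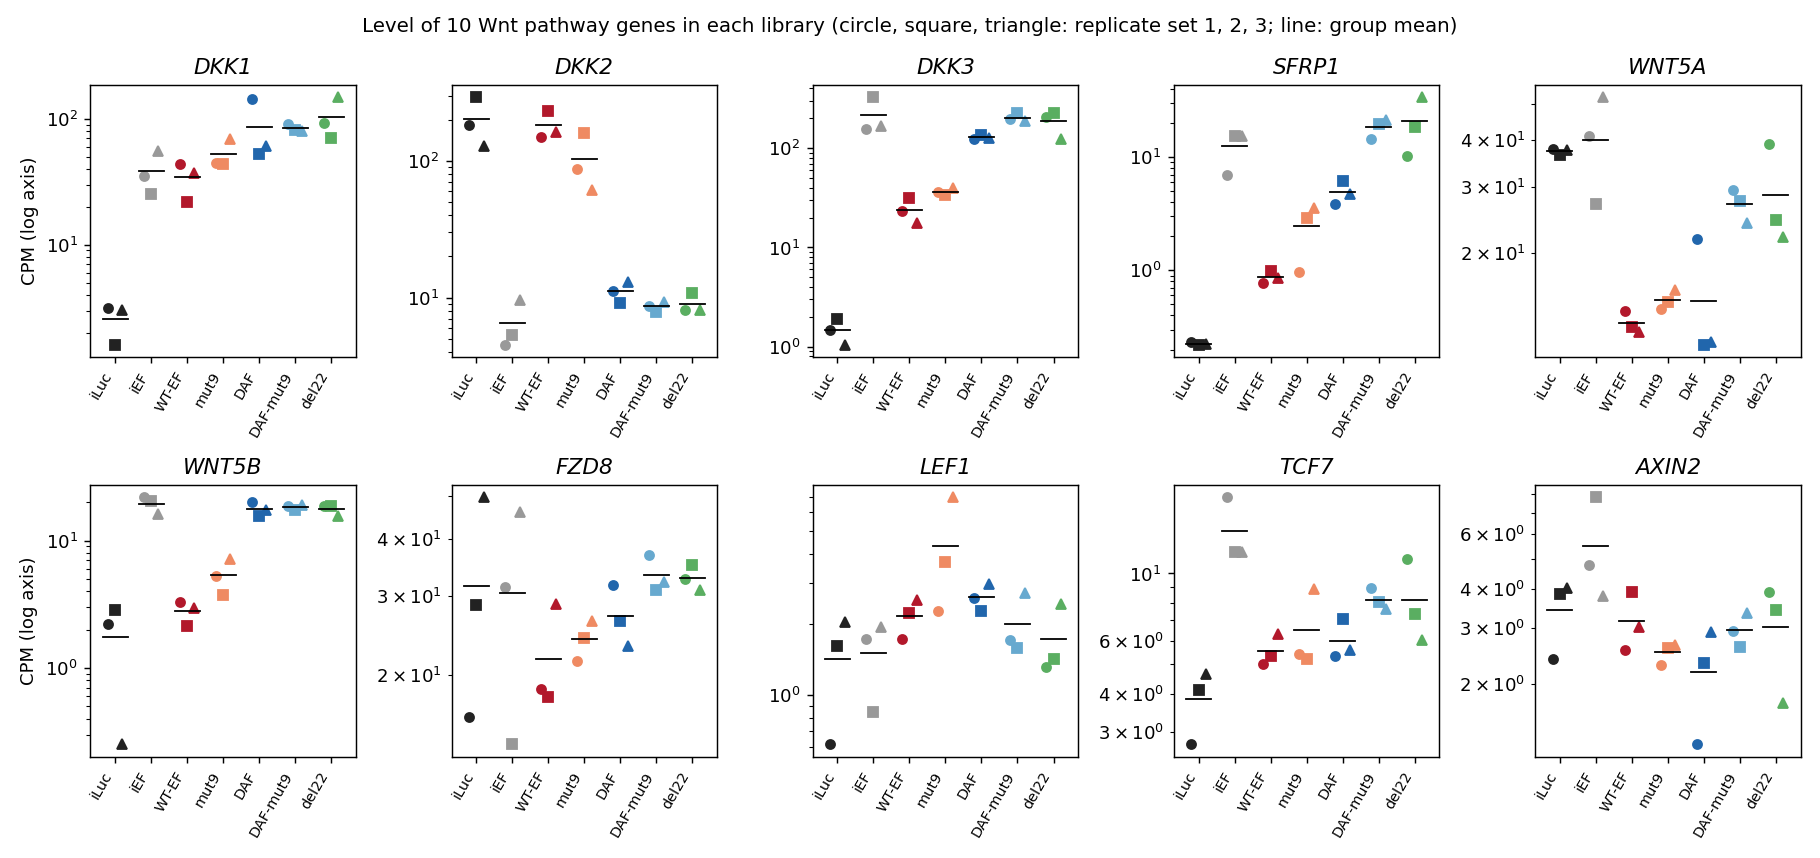
Level of each of the 10 genes in CPM (log axis) in the 21 libraries, by group; symbols mark replicate sets 1, 2 and 3 and lines mark group means. DKK2 is at 61.1 CPM or above in iLuc, WT-EF and mut9 and at 13 CPM or below in the other groups, DKK1 is low in iLuc alone, and the FZD8 ranges of iLuc and iEF take in those of all other groups.

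DKK2 (ENSG00000155011, chromosome 4, 107842959 to 108204963, minus strand, GRCh37) had 4.53, 5.29 and 9.67 CPM in the iEF libraries and 182, 292 and 129 CPM in the iLuc libraries. In WT-EF it had 149, 233 and 163 CPM, and in mut9 87, 160 and 61.1 CPM. The 3 groups with iLuc, WT-EF and mut9 did not overlap the other 4, because DAF had 11.2, 9.07 and 13 CPM, DAF-mut9 8.73, 7.87 and 9.32 CPM, and del22 8.17, 10.8 and 8.08 CPM. Against iEF the log2 fold change was 4.90 ± 0.34 in iLuc (SE, adjusted p = 2.69e-10, edgeR), 4.76 ± 0.34 in WT-EF (1.8e-09) and 3.92 ± 0.33 in mut9 (4.64e-08). These are 29.8-fold, 27.2-fold and 15.1-fold. WT-EF and iLuc differed by -0.13 ± 0.28 (adjusted p = 0.825), and mut9 and WT-EF by -0.85 ± 0.28 (adjusted p = 0.0864). The latter became -1.19 with an adjusted p of 0.0207 without mut9 replicate 2, the highest mut9 library. In DAF the difference from iEF was 0.78 ± 0.31 (adjusted p = 0.145), and it was called without iEF replicate 3, at 1.32 (adjusted p = 0.0122). DAF was 15.8-fold below WT-EF (-3.98 ± 0.32, adjusted p = 2.3e-08), and DAF-mut9 was 11.4-fold below mut9 (-3.51 ± 0.32, 2.32e-07). Of the 7 groups in order of level, the single step between neighbours that passed the test lay between mut9 and DAF. Among the high groups, iLuc was above mut9, not its neighbour, by 0.98 ± 0.28 (adjusted p = 0.0117). That pair was tested only in the fit of all libraries.

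DKK3 (ENSG00000050165, chromosome 11, 11977754 to 12031316, minus strand) showed the widest range of the 10 genes. It had 1.49, 1.9 and 1.05 CPM in iLuc, against 156, 326 and 167 CPM in iEF, a 143-fold lower level with the endogenous fusion (-7.16 ± 0.26, adjusted p = 5.04e-14). WT-EF had 23.5, 31.3 and 17.6 CPM and mut9 35.9, 34.1 and 39.9 CPM. No library of those 2 groups reached the DAF values of 125, 135 and 127 CPM, while DAF-mut9 (198, 224 and 189 CPM) and del22 (208, 227 and 123 CPM) overlapped iEF. The order from the highest was iEF, DAF-mut9, del22, DAF, mut9, WT-EF and iLuc, and each step from DAF downward passed the test. WT-EF lowered DKK3 8.85-fold from iEF (-3.15 ± 0.21, adjusted p = 8.87e-10) and stayed 16.2-fold above iLuc (4.01 ± 0.24, adjusted p = 2.81e-10). The step from WT-EF to mut9 was 0.66 ± 0.20 (adjusted p = 0.0489), and of the sets with 1 of these libraries left out it passed only without mut9 replicate 2 (adjusted p = 0.00953). Without WT-EF replicate 1, 2 or 3 it was 0.66, 0.72 and 0.53, and without mut9 replicate 1 or 3 it was 0.64 and 0.44, none of them called. It was also not called by DESeq2 (adjusted p = 0.0503), with RLE size factors (0.0623) or with filterByExpr (0.0623). DAF was below iEF by -0.69 ± 0.19 (adjusted p = 0.0317). That call was lost without iEF replicate 2 (-0.42) or 3 (-0.73), and without DAF replicate 1 (-0.68) or 2 (-0.56). Of the DKK3 exon bases, 5681 overlap USP47 on the other strand, and the strand setting of the counting is not given in the sources used here.

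SFRP1 (ENSG00000104332, chromosome 8, 41119481 to 41166992, minus strand) had the clearest order across constructs. It was nearly silent in iLuc, with 0.231, 0.221 and 0.226 CPM from 9 or 10 counts a library, and reached 6.91, 15.5 and 15.4 CPM in iEF (-5.74 ± 0.35 on the log2 scale, adjusted p = 3.59e-11, 53.4-fold lower in iLuc). WT-EF had 0.769, 0.992 and 0.86 CPM, mut9 0.971, 2.92 and 3.55 CPM and DAF 3.85, 6.15 and 4.72 CPM. DAF-mut9 (14.3, 19.4 and 21.3 CPM) and del22 (10.3, 18.6 and 33.7 CPM) lay in the range of iEF or above it. At 0.61 ± 0.24 and 0.69 ± 0.24 from iEF they did not pass (adjusted p = 0.213 and 0.154). Both were called with no low-count filter (0.0474 and 0.0133). All libraries of WT-EF were above those of iLuc and below those of DAF, and mut9 replicate 1 lay within the WT-EF range. Every step down from iEF through DAF, mut9 and WT-EF to iLuc passed the test, at 1.28 ± 0.25, 1.10 ± 0.27, 1.39 ± 0.30 and 1.97 ± 0.39 on the log2 scale (adjusted p = 0.00272, 0.0132, 0.00584 and 0.00109). The middle steps were less secure. That between DAF and mut9 was lost without DAF replicate 1 (-0.96), DAF replicate 2 (-1.02) or mut9 replicate 1 (-0.85), and that between mut9 and WT-EF without WT-EF replicate 2 (1.35) or 3 (1.15). With the authors' ComBat-adjusted counts none of these 4 steps passed (adjusted p = 0.0725, 0.167, 0.199 and 0.244), and that between WT-EF and iLuc was 0.90. DAF was 3.94-fold below del22 (-1.98 ± 0.26, adjusted p = 0.00014) and DAF-mut9 7.98-fold above mut9 (3.00 ± 0.27, 1.98e-07).

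DKK1 (ENSG00000107984, chromosome 10, 54074041 to 54077802, plus strand) followed a different pattern. It was low only in iLuc, at 3.13, 1.61 and 3.03 CPM, and no other library was below 22 CPM. The iEF libraries had 35, 25.2 and 55.3 CPM, 14.8-fold above iLuc (-3.89 ± 0.31 for iLuc, adjusted p = 2.06e-09). WT-EF had 43.6, 22 and 37.2 CPM and mut9 44.4, 43.4 and 69.5 CPM, both overlapping iEF. Their differences from iEF were -0.17 ± 0.26 (adjusted p = 0.7) and 0.49 ± 0.26 (adjusted p = 0.262), so WT-EF remained 13.2-fold above iLuc (3.72 ± 0.31, adjusted p = 2.81e-08). With the ComBat-adjusted counts that difference was 2.43. DAF-mut9 had 91, 80.7 and 80.3 CPM and del22 92.2, 70.2 and 148 CPM, all above the iEF libraries, and DAF had 144, 52.4 and 61.2 CPM, with replicate 1 far above the others. DKK1 was called higher than iEF in DAF (1.16 ± 0.27, adjusted p = 0.00951), DAF-mut9 (1.20 ± 0.27, 0.0151) and del22 (1.43 ± 0.27, 0.00593). Each of these calls depended on single libraries. It became 0.67 (adjusted p = 0.122) in DAF without DAF replicate 1 and to 0.99 (0.0609) without iEF replicate 1. In DAF-mut9 it was 1.05 (0.0621) without iEF replicate 1 and 0.95 (0.115) without DAF-mut9 replicate 2, and in del22 it was 1.20 (0.0664) without del22 replicate 3. With no term for replicate set the adjusted p was 0.0601 in DAF and 0.111 in DAF-mut9. DAF was above WT-EF by 1.32 ± 0.27 (adjusted p = 0.00081), and by 0.81 (0.0162) without DAF replicate 1. Against mut9, DAF was higher by 0.67 ± 0.27 (adjusted p = 0.156), which was called without DAF replicate 3 (-0.99 for mut9, 0.0277).

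Per kilobase of exon the secreted inhibitors changed places between groups. The level in iLuc was 46.3 CPM per kilobase for DKK2, 1.17 for DKK1, 0.124 for DKK3 and 0.0477 for SFRP1. In iEF it was 18.1 for DKK3, 17.3 for DKK1, 2.66 for SFRP1 and 1.5 for DKK2. The exon length is the union over all annotated transcripts, which is long for DKK3, so the level of DKK3 per kilobase is a low estimate if short transcripts prevail.

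The 2 ligands WNT5A and WNT5B, which are close relatives, did not respond alike. WNT5B (ENSG00000111186, chromosome 12, 1639057 to 1756378, plus strand) was lower with the endogenous fusion and with WT-EF, whereas WNT5A (ENSG00000114251, chromosome 3, 55499743 to 55524567, minus strand) was called lower in WT-EF, mut9 and DAF and not in iLuc, DAF-mut9 or del22. WNT5B had 22, 20.3 and 16.1 CPM in iEF, against 2.21, 2.83 and 0.251 CPM in iLuc, with replicate 3 of iLuc far below the other libraries. It had 3.32, 2.13 and 2.97 CPM in WT-EF and 5.32, 3.71 and 7.13 CPM in mut9. The DAF libraries had 20, 15.6 and 17.3 CPM, the DAF-mut9 libraries 18.7, 17.3 and 19 CPM and the del22 libraries 18.7, 18.6 and 15.7 CPM, all overlapping iEF. WNT5B was lower than iEF by 3.47 ± 0.41 on the log2 scale in iLuc (-3.47, adjusted p = 5.34e-07), and the change was -2.79 ± 0.39 in WT-EF (1.16e-05) and -1.84 ± 0.37 in mut9 (0.00149). In DAF it was -0.14 ± 0.35 (adjusted p = 0.892), and DAF was 6.27-fold above WT-EF (2.65 ± 0.39, adjusted p = 2.69e-05). DAF-mut9 was 3.4-fold above mut9 (1.77 ± 0.37, adjusted p = 0.00292), and mut9 was 3.25-fold below DAF (-1.70 ± 0.37, 0.00655), a call lost without mut9 replicate 2 (-1.47, 0.0596). WT-EF and iLuc differed by 0.68 ± 0.41 (adjusted p = 0.29), and by 1.34 (0.0439) without iLuc replicate 2.

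WNT5A had 37.9, 36.5 and 37.6 CPM in iLuc, within the iEF values of 41, 27 and 52 CPM, and the difference was -0.09 ± 0.21 (adjusted p = 0.782). WT-EF had 14, 12.7 and 12.3 CPM, mut9 14.2, 14.8 and 15.9 CPM and DAF 21.8, 11.4 and 11.6 CPM. All 9 libraries of these 3 groups were below every iEF and iLuc library. The log2 fold change from iEF was -1.61 ± 0.21 in WT-EF (adjusted p = 5.98e-06), -1.40 ± 0.21 in mut9 (7.76e-05) and -1.45 ± 0.21 in DAF (0.000189). WT-EF was also below iLuc, by 2.88-fold (-1.53 ± 0.21, adjusted p = 2.48e-05). DAF-mut9 (29.4, 27.5 and 24 CPM) and del22 (39.1, 24.5 and 22 CPM) were at -0.56 ± 0.21 and -0.51 ± 0.21 from iEF (adjusted p = 0.172 and 0.252). Both of these were called with no low-count filter (0.00497 and 0.019). DAF-mut9 was above mut9 by 0.84 ± 0.21 (adjusted p = 0.0117), which was lost without mut9 replicate 1 (0.71) or DAF-mut9 replicate 2 (0.72). DAF was below del22 by -0.94 ± 0.21 (adjusted p = 0.0293), a call lost without del22 replicate 1 (-0.74) or 2 (-0.96) and without DAF replicate 2 (-0.84) or 3 (-0.80).

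Among the nuclear factors, TCF7 was called lower with the endogenous fusion and LEF1 was not. TCF7 (ENSG00000081059, chromosome 5, 133450372 to 133487556, plus strand) had 17.9, 11.8 and 11.8 CPM in iEF and 2.72, 4.13 and 4.66 CPM in iLuc, a difference of -1.84 ± 0.26 (adjusted p = 7.08e-06). It had 5.02, 5.35 and 6.31 CPM in WT-EF, 5.43, 5.2 and 8.9 CPM in mut9 and 5.35, 7.08 and 5.57 CPM in DAF. All of these 9 libraries were below the 3 iEF libraries, with log2 fold changes of -1.31 ± 0.26 (adjusted p = 0.000476), -1.09 ± 0.25 (0.00502) and -1.20 ± 0.26 (0.00521). DAF-mut9 (8.94, 8.04 and 7.62 CPM) and del22 (11.2, 7.36 and 6.01 CPM) also lay below every iEF library, at -0.75 ± 0.25 and -0.76 ± 0.25, and these did not pass (adjusted p = 0.117 and 0.125). Both were called with no low-count filter (0.00348 and 0.00371), and del22 also with only the compared groups (-0.77, 0.0324). TCF7 did not differ by the test between any neighbouring groups in the order of level, and the 3 groups WT-EF, mut9 and DAF were within 0.22 of each other on the log2 scale.

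LEF1 (ENSG00000138795, chromosome 4, 108968701 to 109090112, minus strand) was a low transcript, between 0.616 and 6.98 CPM in all libraries. Its iEF libraries had 1.73, 0.845 and 1.95 CPM and its iLuc libraries 0.616, 1.61 and 2.05 CPM, which overlap (-0.14 ± 0.31, adjusted p = 0.772). In mut9 it had 2.27, 3.68 and 6.98 CPM, all above iEF (1.41 ± 0.30, adjusted p = 0.00263), with replicate 3 well above the others. DAF had 2.59, 2.29 and 2.97 CPM, at 0.80 ± 0.31 from iEF (adjusted p = 0.132), and this was called without iEF replicate 1 (1.20, 0.0319). WT-EF had 1.73, 2.23 and 2.55 CPM, at 0.52 ± 0.31 (adjusted p = 0.236). Against WT-EF, mut9 was higher by 0.89 ± 0.29 (adjusted p = 0.0796). This was called by DESeq2 (0.0441), with only the compared groups (0.00366) and with no low-count filter (0.0203). DAF-mut9, at 1.72, 1.59 and 2.71 CPM, was below mut9 by -1.03 ± 0.30 (adjusted p = 0.0291). That call held only without mut9 replicate 1, and was lost without mut9 replicate 2 (-0.997) or 3 (-0.787) and without DAF-mut9 replicate 1 (-1.11), 2 (-0.96) or 3 (-1.03).

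AXIN2 (ENSG00000168646, chromosome 17, 63524681 to 63557766, minus strand), the feedback target, was also a low transcript, between 1.28 and 7.85 CPM. The iEF libraries had 4.78, 7.85 and 3.81 CPM, with replicate 2 the highest of all 21, and the iLuc libraries 2.39, 3.85 and 4.03 CPM. WT-EF had 2.55, 3.92 and 3.02 CPM, mut9 2.29, 2.6 and 2.65 CPM and DAF 1.28, 2.32 and 2.91 CPM. The mut9 and DAF libraries were all below iEF, and AXIN2 was called lower in both, at -1.10 ± 0.30 (adjusted p = 0.0159) and -1.33 ± 0.31 (0.00933). Without iEF replicate 2 these became -0.85 (0.0966) and -1.08 (0.0531). The mut9 call was also lost without mut9 replicate 2 (-1.02), and the DAF call without DAF replicate 1 (-1.08) or 2 (-1.28). DAF-mut9 had 2.93, 2.61 and 3.35 CPM, all below iEF, and del22 had 3.92, 3.44 and 1.74 CPM. Their differences from iEF were -0.85 ± 0.30 and -0.82 ± 0.30, which did not pass (adjusted p = 0.144 and 0.179). In WT-EF the difference was -0.78 ± 0.30 (adjusted p = 0.054, and 0.0376 by DESeq2) and in iLuc -0.67 ± 0.30 (0.0788). That in WT-EF was also called with filterByExpr (0.0475), ComBat-adjusted counts (0.0445), only the compared groups (0.0227) and no low-count filter (0.0104). With no low-count filter the differences in iLuc (0.0297), DAF-mut9 (0.00937) and del22 (0.0158) were called too. Without iEF replicate 3 the WT-EF and iLuc differences were both called, at -1.02 (0.0213) and -0.92 (0.0268), and that in iLuc also without iLuc replicate 3 (-0.84, 0.0497). Of its exon bases, 1316 overlap ENSG00000266076 on the same strand, and reads there cannot be assigned.

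The receptor gene FZD8 (ENSG00000177283, chromosome 10, 35927175 to 35931224, minus strand) varied widely within iLuc and iEF. Its iLuc libraries ran from 16.1 to 49.7 CPM and its iEF libraries from 14 to 46 CPM, while the 15 rescue libraries ran from 17.8 to 37 CPM. No difference from iEF passed the test, the widest being -0.46 ± 0.30 in WT-EF (adjusted p = 0.286), which was called without iEF replicate 2 (-0.80, 0.0351), the lowest iEF library. Among the rescued groups, the WT-EF libraries (17.8 to 28.7 CPM) and mut9 libraries (21.5 to 26.3 CPM) lay below those of DAF-mut9 (30.8 to 37 CPM) and del22 (30.9 to 35.1 CPM). DAF-mut9 against mut9 was 0.48 ± 0.30 (adjusted p = 0.397), and it was called when only these 2 groups were fitted (0.49, 0.00524) or with no low-count filter (0.47, 0.0229).

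**Figure D2:**
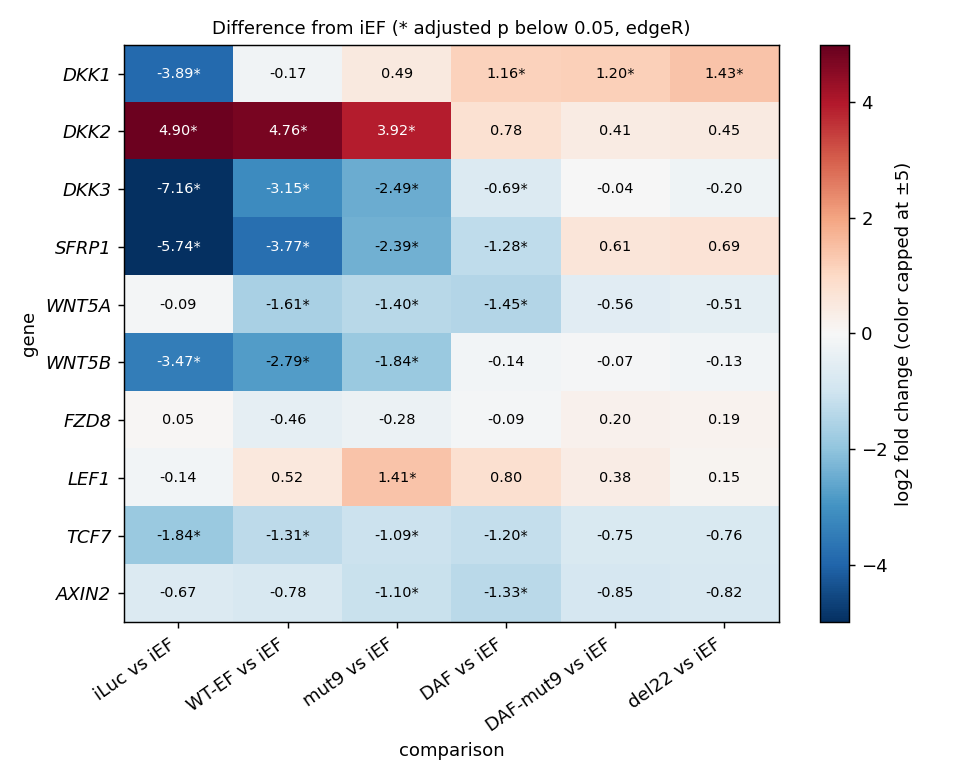
Log2 fold change of the 10 genes in each group relative to iEF, with color capped at 5 either way and stars for an adjusted p below 0.05. DKK2 is high in the iLuc, WT-EF and mut9 columns only, with values of 4.90, 4.76 and 3.92, and DKK1 is the only gene with a star in the DAF-mut9 and del22 columns.

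Counted by comparison, 6 of the 10 genes differed between iLuc and iEF, 1 higher and 5 lower, where 41.1% of all tested genes did (18.7% higher, 22.4% lower). With WT-EF 6 differed, 1 higher and 5 lower, against 28.3% of tested genes (11.4% higher, 16.9% lower). In mut9 8 differed, 2 higher and 6 lower, against 14.6% (6.22% higher, 8.33% lower). In DAF 6 differed, 1 higher and 5 lower, against 7.42% (3.41% higher, 4.02% lower). DAF-mut9 and del22 each differed from iEF in 1 gene, DKK1, which was higher. The share of all tested genes was 3.4% in DAF-mut9 (1.26% higher, 2.14% lower) and 2.67% in del22 (0.881% higher, 1.79% lower). The median log2 fold change over the 10 genes was -1.25 in iLuc, -1.05 in WT-EF, -1.10 in mut9, -0.41 in DAF, 0.08 in DAF-mut9 and 0.01 in del22, and over all tested genes it lay between -0.03 and 0.02. These 6 comparisons share the iEF libraries, so their counts are not independent of each other. The 10 genes were chosen with earlier results of these data known, so the counts describe these genes and are not a test. All 10 averaged at least 1 CPM, as did 14250 of the 30549 tested genes. Shares of all tested genes, here and below, were not matched for expression level. The DAF count was 3 without DAF replicate 1, which removed DKK1, DKK3 and AXIN2, and the DAF-mut9 and del22 counts were 0 without the libraries named for DKK1 above.

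Constructs were also compared directly, without iEF as the baseline. Against iLuc, WT-EF differed in 4 of the 10 genes, against 18.3% of tested genes: DKK1, DKK3 and SFRP1 were higher and WNT5A was lower. Between mut9 and WT-EF 2 differed (6.15% of tested genes), DKK3 and SFRP1, both higher in mut9, and neither held in every set of libraries. Changing the tyrosines in the full-length fusion, DAF against WT-EF, altered 5 (24.9%): DKK2 was lower, and DKK1, DKK3, SFRP1 and WNT5B were higher. Changing the tyrosines left in the shortened fusion, DAF-mut9 against mut9, altered 6 (9.83%): DKK2 and LEF1 were lower, and DKK3, SFRP1, WNT5A and WNT5B were higher. In mut9 against DAF 4 differed (6.61%), with DKK2 higher and DKK3, SFRP1 and WNT5B lower in mut9. DAF differed from del22 in 2 (0.972%), SFRP1 and WNT5A, both lower in DAF. The change brought by the tyrosine substitutions did not differ by the test between the full-length and shortened forms for any of the 10 genes (3.33% of tested genes were called). The substituted tyrosines are not the same set in these forms, so domain length and the set of tyrosines cannot be told apart here. The lowest adjusted p was 0.0972, for LEF1 at -1.32 ± 0.42, and 2 of the 10 genes, WNT5A and LEF1, had an unadjusted p below 0.05. DESeq2 also called 0 of the 10. By edgeR, DAF-mut9 and del22 differed in none of the 10 genes and in none of the tested genes (0%), with an unadjusted p no lower than 0.388 for these 10. The widest of these differences were those of LEF1, at 0.23 ± 0.305, and DKK1, at -0.23 ± 0.26. DAF-mut9 and del22 were compared only in the fit of all libraries, and in no alternative setting. All values with DAF-mut9 rest on reading columns named mut9d as DAF-mut9.

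**Figure D3:**
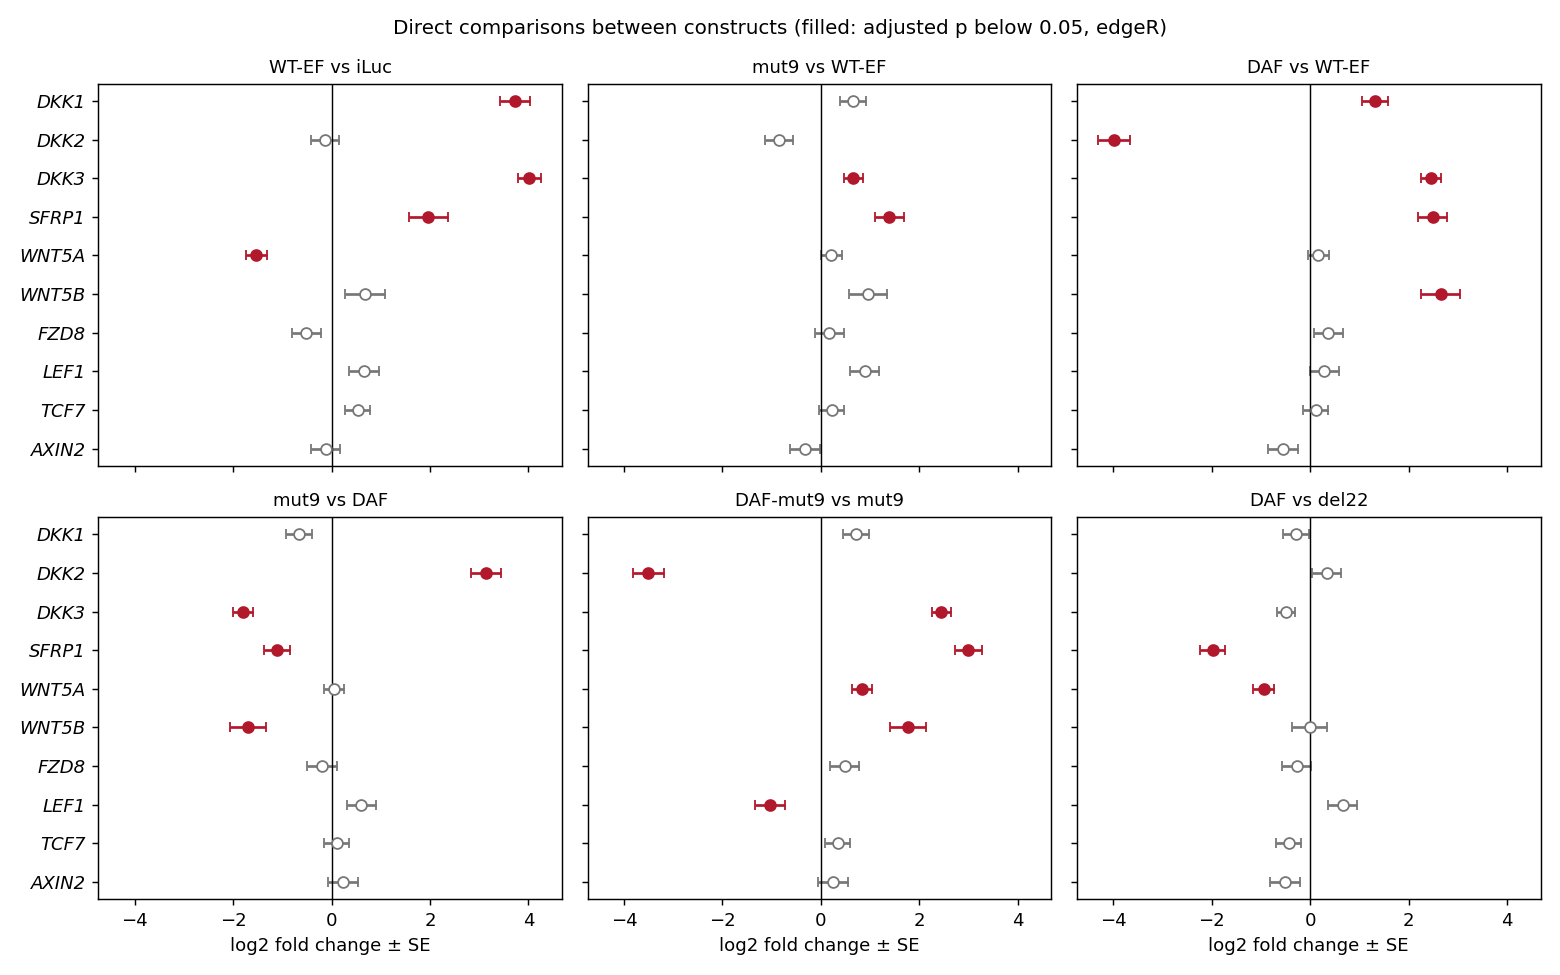
Log2 fold change ± SE of the 10 genes in 6 direct comparisons; filled red points have an adjusted p below 0.05. DKK2 lies at -3.98 and DKK3 at 2.46 in DAF vs WT-EF, and at -3.51 and 2.45 in DAF-mut9 vs mut9.

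Of 85 other Wnt pathway genes listed by role, 76 were tested. Between iLuc and iEF 47 differed (18 higher, 29 lower), which is 61.8% where 41.1% of all tested genes did. In WT-EF 47 differed (18 higher, 29 lower), 61.8% against 28.3%, in mut9 33 (14 higher, 19 lower), 43.4% against 14.6%, and in DAF 15 (6 higher, 9 lower), 19.7% against 7.42%. In DAF-mut9 and del22 7 each differed (3 higher, 4 lower), 9.21% against 3.4% and 2.67%. These shares, too, were not matched for expression level, and this list was chosen with earlier results of these data known. Against iEF, ligands were called in one direction only. In iLuc 8 of 12 tested ligands were lower and 0 higher, where 22.4% of all tested genes were lower. The counts were 7 and 0 in WT-EF (16.9%), 4 and 0 in mut9 (8.33%), 3 and 0 in DAF (4.02%) and 2 and 0 in DAF-mut9 (2.14%). In del22 0 ligands were called. Some called ligands were near the floor, such as WNT6, with 0 counts in iLuc and at most 5 counts in an iEF library. WNT7B, a ligand, had 0 counts in all iLuc libraries and 6.15 ± 1.58 CPM in iEF, at least 84.4-fold lower in iLuc with 3 counts per library as the floor. It was also lower in WT-EF (-3.35 ± 0.30), mut9 (-2.97 ± 0.29) and DAF (-1.49 ± 0.27). Receptors went both ways, with 6 of 14 higher and 5 lower in iLuc and 5 each way in WT-EF. The orphan receptor ROR1, which binds WNT5A, was higher in DAF-mut9 (51.1 ± 6.37 CPM, 1.19 ± 0.14 on the log2 scale, adjusted p = 5.47e-05) and del22 (39 ± 5.01 CPM, 0.80 ± 0.13, 0.00271) than in iEF (22.4 ± 2.61 CPM). It was also higher in DAF (0.89 ± 0.13, 0.00023) and lower in WT-EF (-1.20 ± 0.14, 1.04e-06). It was called lower in iLuc (-0.36, 0.0393) and mut9 (-0.41, 0.0472) as well, but the call was lost in iLuc without iLuc replicate 2 (-0.19) or iEF replicate 1 (-0.31) or 2 (-0.33), and in mut9 without iEF replicate 1 (-0.36) or 2 (-0.38) or any 1 mut9 library (-0.32 to -0.46). FZD1, a Frizzled receptor, was higher in iLuc (1.80 ± 0.15, adjusted p = 3.33e-09), WT-EF (1.54 ± 0.15, 8.91e-08) and mut9 (1.13 ± 0.14, 1.16e-05). It was also higher by 0.64 in DAF-mut9 and 0.69 in del22, calls that were lost without any 1 of the DAF-mut9 libraries (0.60 to 0.67), without del22 replicate 2 (0.63) or 3 (0.55), and without iEF replicate 3 (0.65 and 0.69). FZD7, of the same family, was lower in iLuc (-1.55 ± 0.18), WT-EF (-1.10 ± 0.18), mut9 (-0.96 ± 0.18) and DAF (-1.19 ± 0.18).

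The other secreted inhibitors went both ways. FRZB, a relative of SFRP1, was at 1.91 ± 0.183 CPM in iEF and rose to 20.3 ± 0.761 CPM in WT-EF (3.42 ± 0.35, adjusted p = 2.69e-07) and 14.4 ± 7.08 CPM in mut9 (2.84 ± 0.35), and it was higher in iLuc too (2.68, adjusted p = 2.24e-06), opposite in sign to SFRP1. Of R-spondins, which enhance Wnt signals at the membrane, RSPO3 was lower in iLuc (-2.27 ± 0.38, adjusted p = 4.93e-05), WT-EF (-3.39 ± 0.40, 1.65e-06) and mut9 (-1.63 ± 0.37, 0.00363). RSPO2 was higher in WT-EF (1.15 ± 0.25, 0.00128), mut9 (1.89 ± 0.25, 1.68e-05) and DAF (1.73 ± 0.25, 0.000151). In the cytoplasmic core 4 of 11 genes were called in iLuc, 3 in WT-EF, 2 in mut9, 1 in DAF and 0 in DAF-mut9 and del22. These shares (36.4%, 27.3%, 18.2% and 9.09% in the first 4) are close to the 41.1%, 28.3%, 14.6% and 7.42% of all tested genes, which were not matched for expression level. CTNNB1, which encodes β-catenin, had 167 ± 7.29 CPM in iLuc and 183 ± 10.1 CPM in iEF and was not called in any of the 6 groups. Of the nuclear factors, 8 of 10 were called in iLuc (3 higher, 5 lower) and 8 in WT-EF (4 each way), against 41.1% and 28.3% of all tested genes. In mut9 2 were called, against 14.6%, and in DAF, DAF-mut9 and del22 0 were called. TLE2, a co-repressor, was higher in iLuc (3.69 ± 0.45, adjusted p = 1.04e-06). It was also called higher in WT-EF (1.67, 0.00962), a call lost without iEF replicate 3 (1.22) or WT-EF replicate 2 (1.29), and in mut9 (1.60, 0.0245), a call lost without iEF replicate 1 (1.66) or 3 (1.13) and without mut9 replicate 1 (1.32) or 2 (1.69). Target genes did not move together, with 4 of 9 higher and 2 lower in iLuc and 4 higher and 3 lower in WT-EF. APCDD1, a target that also inhibits the pathway, rose from 31.3 ± 13.7 CPM in iEF to 244 ± 43.1 CPM in iLuc (3.00 ± 0.16), 289 ± 19.1 CPM in WT-EF (3.26 ± 0.16), 175 ± 35.5 CPM in mut9 (2.52 ± 0.16) and 139 ± 15 CPM in DAF (2.20 ± 0.16). CD44, an adhesion receptor, fell from 1420 ± 301 CPM in iEF to 10.5 ± 5.13 CPM in iLuc (-7.12 ± 0.31, adjusted p = 4.27e-13), and was lower in WT-EF (-2.335) and mut9 (-1.001). The mut9 call was lost with the ComBat-adjusted counts (-0.925, adjusted p = 0.206). TNFRSF19 was lower in iLuc (-5.39), WT-EF (-4.15 ± 0.36) and mut9 (-2.95 ± 0.33). In DAF it was at -1.03 (adjusted p = 0.037), a call lost without iEF replicate 1 (-1.03) or 2 (-0.62) and without DAF replicate 1 (-0.86) or 2 (-0.98). MYC was lower in del22 (-0.81 ± 0.18, adjusted p = 0.0187) and DAF-mut9 (-0.65 ± 0.18, 0.0493), calls that were lost in del22 without iEF replicate 3 (-0.54) or without del22 replicate 1 (-0.72) or 3 (-0.80), and in DAF-mut9 without iEF replicate 2 (-0.70) or 3 (-0.37) or any 1 DAF-mut9 library (-0.60 to -0.74). WNT10A was lower in iLuc (-4.99, adjusted p = 3.51e-06) and WT-EF (-2.57, 0.00103). It was also lower in DAF-mut9 (-2.05 ± 0.53, adjusted p = 0.0354), a call that was lost without any 1 of the iEF or DAF-mut9 libraries (-1.77 to -2.36).

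**Figure D4:**
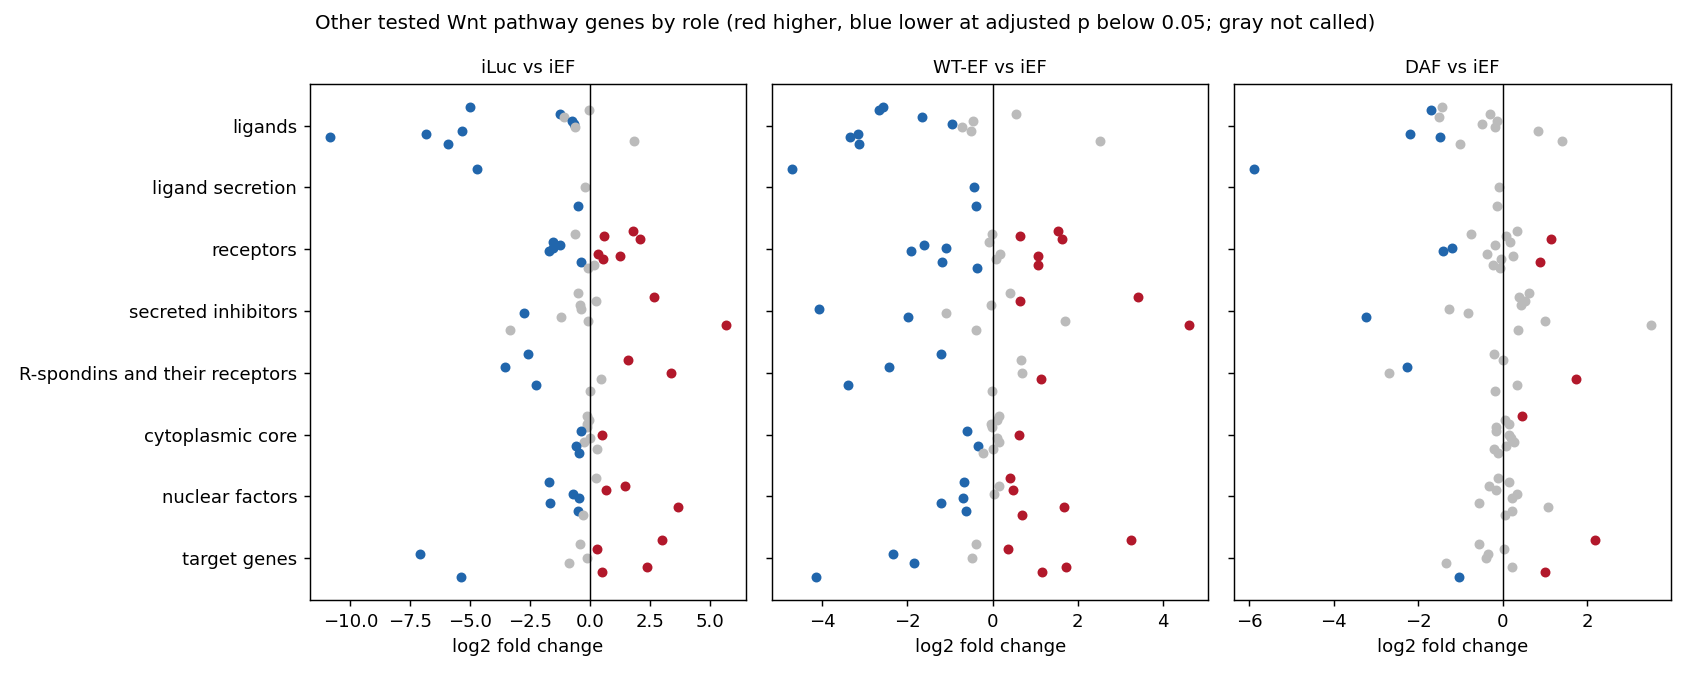
Log2 fold change of the 76 other tested Wnt pathway genes, grouped by role, in iLuc, WT-EF and DAF relative to iEF; red and blue points are higher and lower at an adjusted p below 0.05, and the axes have different ranges. Called ligands lie on the lower side in all 3 panels, 8 in iLuc, 7 in WT-EF and 3 in DAF, while receptors lie on both.

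Across the 21 libraries, which share group structure, the levels of DKK3, SFRP1 and WNT5B went together, with Pearson r of log2 CPM of 0.921 for DKK3 and SFRP1, 0.909 for DKK3 and WNT5B and 0.866 for SFRP1 and WNT5B. DKK2 ran opposite to them, at -0.849, -0.889 and -0.869. DKK1 also went with DKK3 (0.865), SFRP1 (0.787) and WNT5B (0.742), and was at -0.641 with DKK2. TCF7 was at 0.731 with DKK3 and -0.728 with DKK2, and WNT5A had no r beyond 0.532 in size with any of the others. Among 13554 genes with a mean of at least 1 CPM, those most like DKK2 were PCSK2 (0.988), a prohormone convertase, and CHN2 (0.985). DKK3 was matched most closely by SNX7 (0.989) and LAMA4 (0.988), a laminin chain that had 196 CPM in iEF and 1.51 CPM in iLuc. For SFRP1 they were CLDN4 (0.971) and BMP6 (0.970) and for DKK1 AHNAK2 (0.973) and APBA1 (0.970). ZC2HC1A (0.970) was among the genes most like WNT5B. For TCF7 they were GCSAM (0.939) and DIO2 (0.913), and for WNT5A YAP1 (0.895), a co-activator of the Hippo pathway, and MIOS (0.860). The closest genes were less alike for LEF1 (CLCN7, 0.839, and PRDM2, 0.813), AXIN2 (AEBP1, 0.836, and ADGRA3, 0.809) and FZD8 (ZNF470, 0.801, and ZDHHC6, 0.797). These values describe the pattern over libraries of a few groups and carry no test.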

How the data were processed

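RNA-seq was performed by the authors on 21 A673 libraries. Per the labels and the study's methods, reads were aligned to hg19 with STAR and counted per gene with htseq-count in intersection-strict mode, giving the deposited raw counts. Neither the annotation release nor the strand setting is given in the sources used here. The authors also deposited ComBat-adjusted counts, a signal in which replicate sets were evened out and which is not scaled for library size, used here only as an alternative, in which DKK3 was not analysed. Deposited log2 fold changes, their standard errors and p-values are the authors' own comparisons and were not used. Groups were taken from the labels, and the mut9d columns were taken to be DAF-mut9.

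Genes averaging 1 count or more in the 21 libraries were normalized by TMM and tested in R 4.3.3 with edgeR 4.0.16 (quasi-likelihood, group and replicate set as terms, all 21 libraries), with Benjamini-Hochberg adjustment over 30549 genes and a call at adjusted p below 0.05. The replicate set was a term because the authors adjusted each set as a batch, and the numbers were taken to pair the libraries on that ground. Deviations of 63 same-numbered pairs had a median correlation of 0.158, with 42 over 0.1, against -0.0906 for 126 other pairs. Levels are CPM as mean ± SD, and errors of log2 fold changes are SE. 1 CPM stood for 32 to 45.2 counts. The test was checked on simulated counts. Alternatives were DESeq2 1.42.0 with the replicate term, no replicate term, RLE size factors, no low-count filter, filterByExpr, only the compared groups, ComBat-adjusted counts (rounded), a further 2-fold requirement, and each library left out. The 10 genes, the other lists and the tests were chosen with earlier results of these data known. Named were the 10 genes, FLI1, markers, up to 2 genes each way per comparison with iEF among the other Wnt genes (adjusted p below 0.05, mean of at least 1 CPM, greatest change), and the 2 genes most correlated with each; the other Wnt genes so named are given in every comparison with iEF that called them. A marker and a gene correlated with WNT5B are not reported here. CTNNB1 was named after its values were seen. Places are from GENCODE 44 lifted to GRCh37.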

Additional observations from a re-analysis of the deposited data

How the results depend on the processing

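Of 1777 recomputed values of single genes, 1614 kept their direction and side of the threshold, 121 were no longer called, 25 became called and 17 changed sign, all of these in values that were not called. The 1777 cover called values, and uncalled values only of the 10 genes against iEF. Uncalled values in direct comparisons were left out, and some became called, such as DKK2 in mut9 against WT-EF with only the compared groups (adjusted p = 4.63e-06). The count of the 10 genes called moved by over 1.5 times as follows. DKK3 has no ComBat-adjusted value here, so counts with that setting are over the other 9 genes. In DAF-mut9 against iEF it was 1 in the main model, 0 with no replicate block, 0 with ComBat-adjusted counts and 5 with no low-count filter. In del22 against iEF it was 5 with no low-count filter and 2 with only the compared groups. In WT-EF against iLuc and in mut9 against DAF it was 2 of these 9 genes with ComBat-adjusted counts, where the main model called 3 of the same 9. In mut9 against WT-EF it was 0 with no replicate block, 0 of the 9 with ComBat-adjusted counts (1 in the main model), 1 with RLE, filterByExpr or a further 2-fold requirement, and 6 with no low-count filter or only the compared groups. In DAF against del22 it was 1 with no replicate block or with the 2-fold requirement. For the difference between the tyrosine effects it was 3 with no low-count filter and 2 with only the compared groups. The cause was not tested.

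Leaving out 1 library gave 6 to 7 genes in iLuc and in WT-EF against iEF, 7 to 8 in mut9, 3 to 6 in DAF, 0 to 1 in DAF-mut9 and in del22, 4 to 5 in WT-EF against iLuc, 0 to 3 in mut9 against WT-EF, 5 in DAF against WT-EF, 3 to 5 in mut9 against DAF, 4 to 5 in DAF-mut9 against mut9, 1 to 2 in DAF against del22 and 0 for the difference between tyrosine effects. Signs changed in these uncalled log2 values: FZD8 in iLuc (-0.31 to 0.39, and -0.029 with ComBat-adjusted counts), DAF (-0.43 to 0.20), DAF-mut9 (-0.15 to 0.49) and del22 (-0.17 to 0.47), LEF1 in iLuc (-0.41 to 0.23) and del22 (-0.11 to 0.53), WNT5A in iLuc (-0.28 to 0.22), DKK1 in WT-EF (-0.321 to 0.053), and DKK3 in DAF-mut9 (-0.22 to 0.23) and del22 (-0.388 to 0.075).

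With no replicate block the lost calls were DKK1 in DAF (adjusted p = 0.0601) and DAF-mut9 (0.111), DKK3 in DAF (0.0854) and in mut9 against WT-EF (0.22), SFRP1 in mut9 against WT-EF (0.0571) and DAF (0.184), LEF1 in DAF-mut9 against mut9 (0.11) and WNT5A in DAF against del22 (0.092), and among the other named genes TLE2 in WT-EF (0.0647) and mut9 (0.172), TNFRSF19 in DAF (0.0879), ROR1 in mut9 (0.0732) and MYC in DAF-mut9 (0.0901). Depth limits precision for LEF1 and AXIN2, with 24 to 251 counts a library, for SFRP1 in iLuc, with 9 or 10, and for WNT5B in iLuc replicate 3, with 10.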
